A study of Mus musculus with 60 samples.

Results

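Chlorthalidone, hydrochlorothiazide, glybenclamide, sulfasalazine and topiramate are medicines with different uses whose molecules each carry a sulfonamide, sulfonylurea or sulfamate group. These 5 compounds were described as a class because of that shared group, by a rule that uses no expression value, although the class was proposed with earlier results of these data known, and they account for 15 of the 60 arrays and 5 of the 19 compounds of the study. The study asked how drugs labelled as teratogens or non-teratogens change transcription in mouse embryonic stem cells. Cells of the R1 line, which had been grown on a feeder layer and then separated from it, were left attached and undifferentiated and were exposed to 1 compound for 6 h in 0.1% DMSO, and the controls received the same amount of DMSO alone. Every group held 3 arrays. Chlorthalidone, hydrochlorothiazide, sulfasalazine and topiramate were given at 1 mM and glybenclamide at 0.37 mM. Per the labels, a dose was the lowest of 3 limits, namely a 10% loss of viability after a day, 1 mM and the solubility limit, and the glybenclamide dose is its 10% viability limit. The labels call topiramate a teratogen and the other 4 compounds non-teratogens. The 14 other compounds fill 42 arrays. Of them 5, penicillamine, dimethadione, fluconazole, paracetamol and valproic acid, were also given at 1 mM. Lower doses were 0.35 mM thalidomide, 0.17 mM metoclopramide, 0.1 mM dexamethasone, 0.054 mM ondansetron and 0.043 mM loratadine. Clozapine was given at 0.028 mM, retinoic acid at 0.024 mM and methotrexate at 0.028 µM, and the azacytidine dose is not used here. The labels call clozapine, loratadine, metoclopramide, ondansetron and paracetamol non-teratogens and the rest of the 14 teratogens. A single cell line cultured without differentiation stands in for an embryo here, with no placenta, liver or blood.

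The compounds differ in what surrounds the sulfur. Chlorthalidone, a thiazide-like diuretic, and hydrochlorothiazide, a thiazide diuretic, both hold a chlorine-bearing benzene ring with an unsubstituted sulfonamide. Topiramate, an antiepileptic, is a sulfamate ester of a sugar derived from fructose. Sulfasalazine, an anti-inflammatory prodrug, holds a sulfonamide whose nitrogen carries a pyridine ring and is joined through an azo bond to aminosalicylate. Glybenclamide, an antidiabetic, is a sulfonylurea. As background, unsubstituted sulfonamides and sulfamates bind the zinc of carbonic anhydrases. Thiazides block the sodium-chloride cotransporter Slc12a3 of the kidney, sulfonylureas close ATP-sensitive potassium channels by binding Abcc8, sulfasalazine blocks the cystine importer Slc7a11 and the enzyme sepiapterin reductase, and topiramate acts on GABA and glutamate receptors and on ion channels. When an amino acid runs short or a cell is otherwise stressed, kinases that phosphorylate the initiation factor eIF2 raise the translation of the transcription factor ATF4, which then switches on genes for amino acid import, amino acid synthesis and stress signalling. That programme, called the amino acid response below, is the pattern on which most of the results turn.

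Each array reported 35556 probe sets on a log2 scale, of which 21789 carry a single gene symbol and were tested. A probe set was called when its adjusted p was under 0.05. For a compound against DMSO, the Benjamini-Hochberg adjustment of limma's moderated test ran over these probe sets; for the 6 pairs among the compounds at 1 mM it ran over all pairs together. Glybenclamide, at another dose, was set beside the others and compared with DMSO only. All comparisons with DMSO share the same 3 control arrays. The cells read as stem cells on all arrays of the class and the controls, since all 10 of the stem cell genes checked lay above the array median with a mean between 12.25 and 12.39. Of 18 genes that mark fibroblasts of a feeder layer, 14 lay above the array median as well, with a mean between 9.475 and 9.576, so expression from feeder cells may be present. Against DMSO 1 of these 18 fell with glybenclamide, 1 fell with sulfasalazine and none was called with the other compounds. Over all probe sets 2.75% fell with glybenclamide and 3.5% with sulfasalazine. Between compounds sulfasalazine was lower than hydrochlorothiazide in 4 (0 without the narrow arrays described next), lower than topiramate in 3 and lower than chlorthalidone in 2. In these pairs, in the same order, 20.6%, 15.6% and 7.49% of all probe sets were lower with sulfasalazine, so the counts lay near those shares. Part of any difference below could lie in the feeder fraction, which was not tested. Fewer cells of a type cannot be told apart from less RNA per cell.

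The hydrochlorothiazide arrays have to be described before any result. The interquartile range of an array, the width of the middle of its log2 values, was 2.9742 for replicate 1, 2.9925 for replicate 2 and 3.1736 for replicate 3 of hydrochlorothiazide. It ran from 3.1086 to 3.231 with DMSO, from 3.1269 to 3.2097 with chlorthalidone, from 3.2332 to 3.2958 with glybenclamide, from 3.2982 to 3.3148 with sulfasalazine and from 3.0527 to 3.1794 with topiramate. Replicates 1 and 2 of hydrochlorothiazide were thus the narrowest arrays of the study, and replicate 1 of sulfasalazine was the widest. Where arrays differ in width, dim and bright probe sets shift in opposite directions: between hydrochlorothiazide and sulfasalazine the median difference was 0.18 in the dimmest 25% of probe sets and -0.10 in the brightest 25%. Against DMSO the same 2 medians were 0.09 and -0.05 for hydrochlorothiazide, -0.09 and 0.05 for sulfasalazine, -0.08 and 0.02 for glybenclamide, 0.06 and -0.03 for topiramate, and 0.02 and -0.01 for chlorthalidone. Most results with hydrochlorothiazide are therefore given with and without replicates 1 and 2. Counts of calls over all probe sets, and some of the gene list counts, are also given with the interquartile range as a covariate. Values of single genes mostly are not. Without the narrow arrays hydrochlorothiazide rests on 1 array, which was assumed to vary like the arrays of the other groups.

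**Figure D1:**
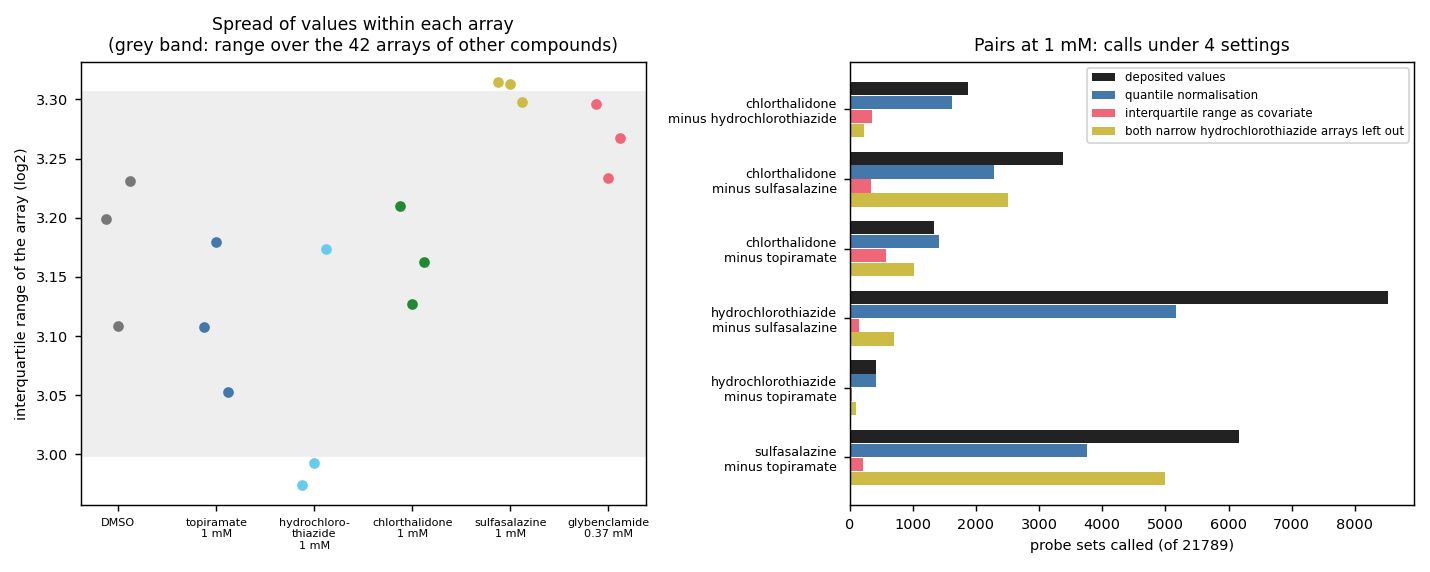
The left panel plots the interquartile range of log2 values for each array of the 5 compounds and DMSO, over a grey band for the 42 arrays of the other compounds; the right panel plots the number of called probe sets for each of the 6 pairs at 1 mM under 4 settings. Replicates 1 and 2 of hydrochlorothiazide lie lowest at 2.9742 and 2.9925, and the pair of hydrochlorothiazide and sulfasalazine falls from 8515 called probe sets to 708 without them and to 151 with the covariate.

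No gene passed the test for a difference between the class and the other compounds. When the 5 compound means were compared with the 14, no probe set was called by limma (0%), the smallest adjusted p was 0.913, and 974 probe sets had an unadjusted p under 0.05. The 4 compounds at 1 mM against the 5 others at that dose also gave no call (0%), with a smallest adjusted p of 0.873 and 927 probe sets under an unadjusted 0.05. Both numbers are below what an unadjusted 0.05 passes by chance among 21789 probe sets. Leaving out 1 class compound at a time gave no call in the first comparison and at most 1 in the second, without sulfasalazine. The size of a response, taken as the median absolute log2 difference from DMSO over all probe sets, was 0.0619 for chlorthalidone, 0.0726 for topiramate, 0.0912 for hydrochlorothiazide, 0.0952 for glybenclamide and 0.101 for sulfasalazine. The class averaged 0.0845 ± 0.0166 (SD, n = 5) and the other compounds 0.0745 ± 0.0179 (SD, n = 14), and the ranges overlapped (exact two-sided permutation test, p = 0.295). Without the narrow arrays the class averaged 0.0784. Distances between compounds had similar medians inside and outside the class. The root mean square difference between compound means had a median of 0.150 over the 10 pairs inside the class, 0.145 over the 70 pairs of a member with another compound and 0.153 over the 91 pairs of other compounds. Inside the class hydrochlorothiazide and topiramate were the nearest pair at 0.0931, and hydrochlorothiazide and sulfasalazine the farthest at 0.239. The compound nearest to chlorthalidone was clozapine at 0.110, and ondansetron was nearest to both glybenclamide, at 0.112, and sulfasalazine, at 0.0915. These distances used all arrays. The mean interquartile range was 3.0468 for hydrochlorothiazide, 3.1131 for topiramate, 3.1665 for chlorthalidone and 3.2089 for clozapine. It was 3.2655 for glybenclamide, 3.2764 for ondansetron and 3.3088 for sulfasalazine. How far array width sets these distances was not tested.

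Single genes that came closest to a class pattern were few. Ctbp2, a transcriptional corepressor, was the only gene whose 5 class means all lay above the 14 others (1 probe set, 0.00459%), with a difference of 0.10 ± 0.04 (SE) and an adjusted p of 0.913. No probe set had all 5 class means below the others (0%). Adamts3, a protease that processes procollagen, had the smallest p of the class comparison, with a difference of 0.29 ± 0.06 (SE) and an adjusted p of 0.913. On that probe set the compound means were 6.7289 for chlorthalidone, 6.5333 for glybenclamide, 6.3479 for hydrochlorothiazide, 6.3019 for sulfasalazine and 6.126 for topiramate, and the other compounds lay between 6.0324 and 6.2788. Topiramate thus lay inside the range of the other compounds. The array holds 16 probe sets for Adamts3, and all 16 had a positive class difference, from 0.09 to 0.29, with none called. Against DMSO 12 of the 16 rose with chlorthalidone, 8 with glybenclamide, 1 with sulfasalazine and none with hydrochlorothiazide or topiramate. The chlorthalidone level was higher than that of hydrochlorothiazide on 12 probe sets (also 12 without its narrow arrays), of sulfasalazine on 14 and of topiramate on 13. In these pairs 6.54%, 7.49% and 4.3% of all probe sets were higher with chlorthalidone. At 1 mM the smallest p belonged to Trdn, triadin of the muscle calcium release complex, at 0.43 ± 0.07 (SE) among the higher genes and to Kitl, the ligand of the Kit receptor, at -0.36 among the lower ones, neither of which was called. Glybenclamide, outside that comparison, had a Trdn mean of 4.879, below the lowest of the 5 others at 4.9009, against the class direction. Its Kitl mean of 7.136 also lay below the 5 others, whose lowest was 7.3657, in the class direction.

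The number of genes that changed against DMSO differed widely between compounds. Chlorthalidone called 313 probe sets up (1.44%) and 249 down (1.14%), glybenclamide 1479 up (6.79%) and 600 down (2.75%), and sulfasalazine 1177 up (5.4%) and 763 down (3.5%). Hydrochlorothiazide called 66 up (0.303%) and 407 down (1.87%), and without its narrow arrays it called none, so that every count for hydrochlorothiazide against DMSO below becomes 0 without them. Topiramate, the compound labelled a teratogen, called none (0%) by limma, with a smallest adjusted p of 0.0643 and 2575 probe sets under an unadjusted 0.05. With a trend and robust variance 12 were called for topiramate, and without its replicate 2 the count was 30. These counts moved with single arrays. The range on leaving out 1 array was 319 to 436 for chlorthalidone against 562 in full, the fewest without its replicate 2. It was 391 to 2994 for sulfasalazine, the extremes coming without replicates 2 and 3 of DMSO, and 1126 to 2090 for glybenclamide, the fewest without replicate 2 of DMSO. For hydrochlorothiazide it was 0 without replicate 1 and 3428 without replicate 3. When array width entered as a covariate the counts were 855 for chlorthalidone, 2 for hydrochlorothiazide, 1702 for glybenclamide, 297 for sulfasalazine and 0 for topiramate. With that covariate the share of calls that were higher went from 71.1% to 55.5% for glybenclamide.

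Chlorthalidone, glybenclamide and sulfasalazine each raised genes of the amino acid response. Chac1, which degrades glutathione and is a target of ATF4, was highest or second among the named genes of all 3 compounds. Its log2 values were 8.987, 9.2542 and 9.0713 with DMSO. They were 10.518, 10.392 and 10.413 with chlorthalidone, a rise of 1.34 ± 0.08 (SE, adjusted p = 2.294e-16). With sulfasalazine they were 10.539, 10.398 and 10.489, a rise of 1.37 (adjusted p = 8.245e-17). All arrays of both compounds lay more than 1 log2 unit above every control array. With glybenclamide Chac1 read 10.094, 9.9727 and 10.04, a rise of 0.93 (adjusted p = 2.913e-11). With hydrochlorothiazide the values were 9.3537, 9.3795 and 9.1799, where replicate 3 lay inside the range of the controls (difference 0.20, adjusted p = 0.1545; 0.08 without the narrow arrays). With topiramate they were 9.4604, 9.4227 and 9.4543, all above the controls without passing the threshold (0.34, adjusted p = 0.152). Among the other compounds loratadine had a Chac1 rise of 1.55 and the remaining 13 lay between -0.05 and 0.65.

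Chac1, Asns and Nupr1 carry in their promoters a sequence of the kind that ATF4 binds together with C/EBP factors, TGATGNAA on either strand. The stretches are shown because these 3 genes rose with chlorthalidone, glybenclamide and sulfasalazine and hold the motif before the start of transcription; Trib3, which also rose with them, holds it after the start and is not shown. They were read from RefSeq promoters of build GRCm38.p6, are written from 5′ to 3′ along the gene's strand, and hold the motif in capitals. Slc7a11, the transporter that sulfasalazine blocks, is shown because it holds the motif in both orientations.
Asns, chr6:7693210-7693258, minus strand: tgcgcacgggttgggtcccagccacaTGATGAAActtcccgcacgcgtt
Chac1, chr2:119351023-119351082, plus strand: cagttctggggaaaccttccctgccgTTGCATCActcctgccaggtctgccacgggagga
Nupr1, chr7:126625547-126625606, minus strand: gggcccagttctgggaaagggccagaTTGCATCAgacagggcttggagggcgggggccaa
Slc7a11, chr3:50443627-50443705, minus strand: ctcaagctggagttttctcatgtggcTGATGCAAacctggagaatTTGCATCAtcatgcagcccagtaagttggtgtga
In each case the window lies before the annotated start of transcription. Of 27 measured genes of the amino acid response 23 had RefSeq promoters, taken as 250 bases before to 50 after each start, 28 in all, and 7 of these 28 (25%) held the motif. Of all 32851 promoters of that length 1304 (3.97%) held it. Among the genes of the list that rose with all 3 compounds, 12 had such a promoter and 4 of these 12 held the motif. Atf3 and Vldlr, also of the list, hold it before the start and were not called with all 3. A match describes the letters and was not tested as a binding site.

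Of the 27 measured genes of the amino acid response, 14 rose with chlorthalidone, 17 with glybenclamide and 19 with sulfasalazine, 1 rose with hydrochlorothiazide, none was called with topiramate and none fell with any. The median difference of the list was 0.226, 0.221, 0.262, 0.0602 and 0.0833 in that order, beside medians of all genes between -0.025 and 0.0153. These counts stand beside the 1.44%, 6.79% and 5.4% of all probe sets that rose with the first 3 compounds. The comparisons share their controls. Those that rose in each of the 3 were the transcription factors Atf4 and Ddit3, the regulators Trib3 and Nupr1, the transporters Slc3a2, Slc7a5 and Slc6a9, the biosynthetic enzymes Asns, Psat1, Aldh18a1 and Mthfd2, the secreted glycoprotein Stc2, and Chac1. With the covariate 15, 14 and 13 genes rose with chlorthalidone, glybenclamide and sulfasalazine. For chlorthalidone 9 rose without replicate 1 or 3 of DMSO or its own replicate 1.

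**Figure D2:**
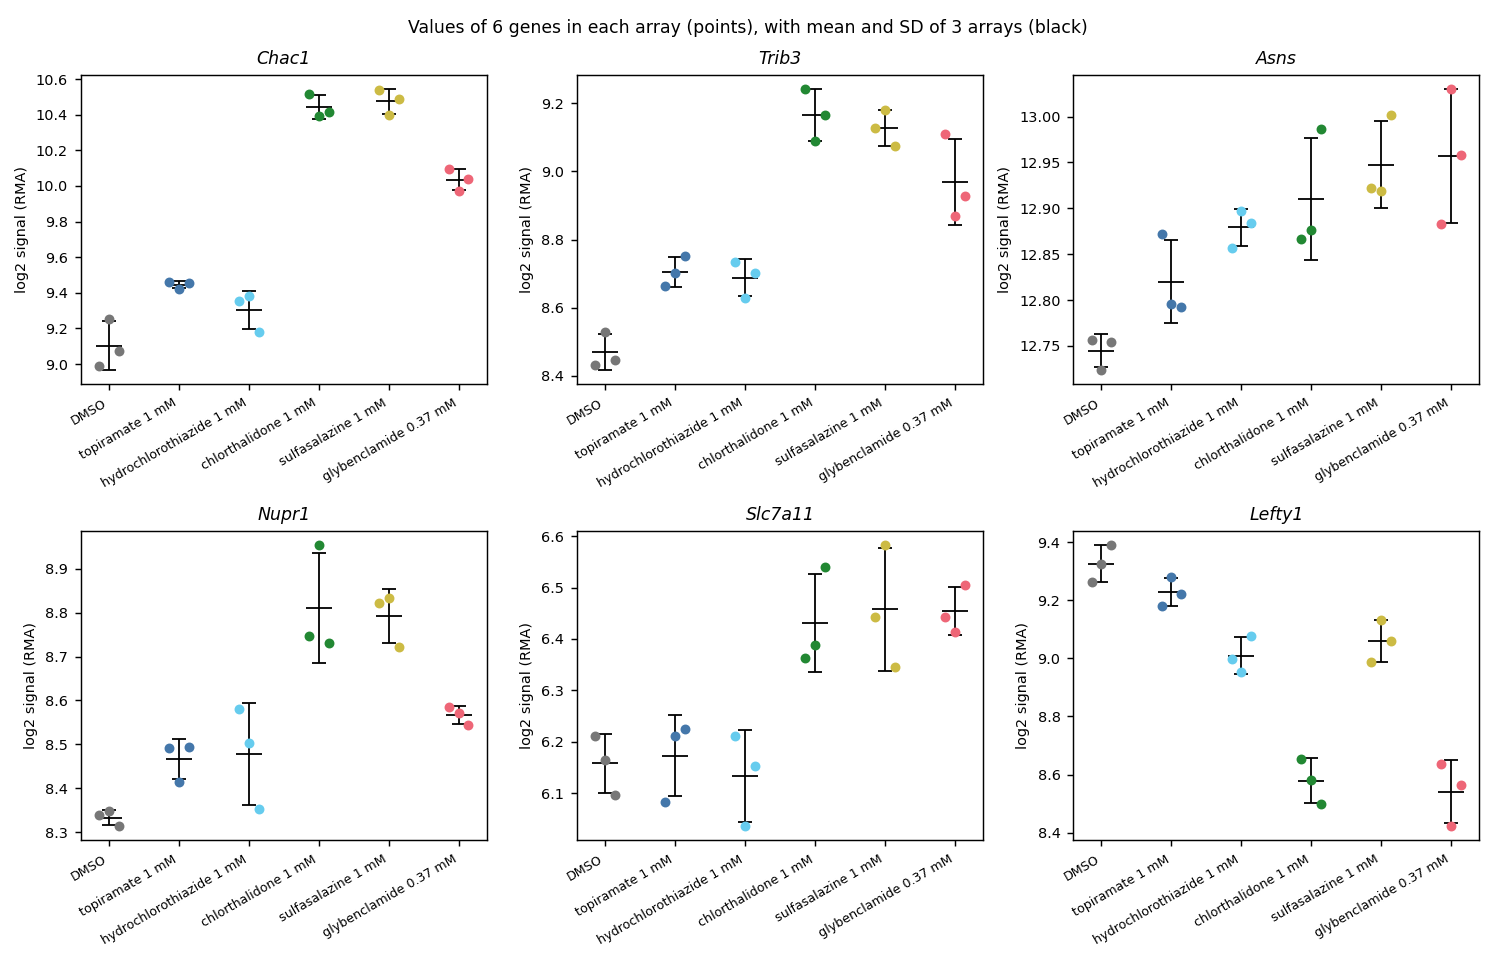
Each panel plots the log2 values of 1 gene, with points for single arrays and black marks for the mean and SD of 3 arrays, for DMSO and the 5 compounds. For Chac1 all arrays of chlorthalidone, glybenclamide and sulfasalazine lie between 9.9727 and 10.539 and every other array shown lies at or below 9.4604; Lefty1 is lowest with chlorthalidone and glybenclamide.

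The regulators of the list moved as follows. Trib3, a pseudokinase that feeds back on the stress response, read 8.4331, 8.5303 and 8.4478 with DMSO, 9.2424, 9.0889 and 9.1657 with chlorthalidone, and 9.1263, 9.1794 and 9.0744 with sulfasalazine. The rises were 0.70 (adjusted p = 8.538e-10) and 0.66 (adjusted p = 3.773e-09), with no overlap with the controls. Trib3 read 8.7335, 8.6284 and 8.7019 with hydrochlorothiazide, above all controls but short of the threshold (0.22, adjusted p = 0.0689; 0.23 without the narrow arrays). With glybenclamide its rise was 0.50 (adjusted p = 8.94e-07) and with topiramate the difference was 0.24 (adjusted p = 0.2009). Atf4 itself, the transcription factor of the programme, differed from DMSO by 0.51 with chlorthalidone, 0.42 with glybenclamide, 0.53 with sulfasalazine, -0.01 with hydrochlorothiazide and 0.07 with topiramate. Ddit3, a transcription factor of the stress response also called CHOP, rose by 0.63 with chlorthalidone, 0.34 with glybenclamide and 0.49 with sulfasalazine. Sesn2, Ddit4, Cebpb, Atf5 and Eif4ebp1, further regulators of the list, were called against DMSO with no compound of the class.

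Stc2 was the only gene of the list called with hydrochlorothiazide. It read 8.3365, 8.3362 and 8.4099 with DMSO and 8.5638, 8.5875 and 8.6032 with hydrochlorothiazide, a rise of 0.22 ± 0.05 (SE, adjusted p = 0.0163). The 3 arrays lay above all controls; without the narrow arrays the difference was 0.24 and was not called. With chlorthalidone Stc2 read 9.0545, 9.0754 and 8.9733, a rise of 0.67 (adjusted p = 5.692e-13). It rose by 0.62 with sulfasalazine and 0.28 with glybenclamide, and with topiramate the difference was 0.20 (adjusted p = 0.1808).

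Transporters and enzymes of the list rose by different amounts. Slc6a9, a glycine importer, rose by 0.65 with chlorthalidone, 0.63 with glybenclamide and 0.76 with sulfasalazine. Mthfd2, a mitochondrial enzyme of folate metabolism, rose by 0.44, 0.41 and 0.49, and Aldh18a1, an enzyme of proline synthesis, by 0.28, 0.39 and 0.44. Asns, which makes asparagine, was already bright, at 12.756, 12.724 and 12.754 with DMSO, and its rises were 0.17 (adjusted p = 0.04665), 0.21 (adjusted p = 0.001947) and 0.20 (adjusted p = 0.006016). Slc1a4, an importer of alanine, serine and cysteine counted here among the cystine and glutathione genes, read 8.9021, 9.0284 and 9.0535 with DMSO and 9.8257, 9.8455 and 9.7831 with sulfasalazine, a rise of 0.82 (adjusted p = 1.277e-12). Its rises with chlorthalidone and glybenclamide were 0.62 and 0.65, and its differences with hydrochlorothiazide and topiramate were 0.01 and 0.15. Phgdh, the first enzyme of serine synthesis, and Slc7a3, an importer of basic amino acids, were called with no compound of the class.

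**Figure D3:**
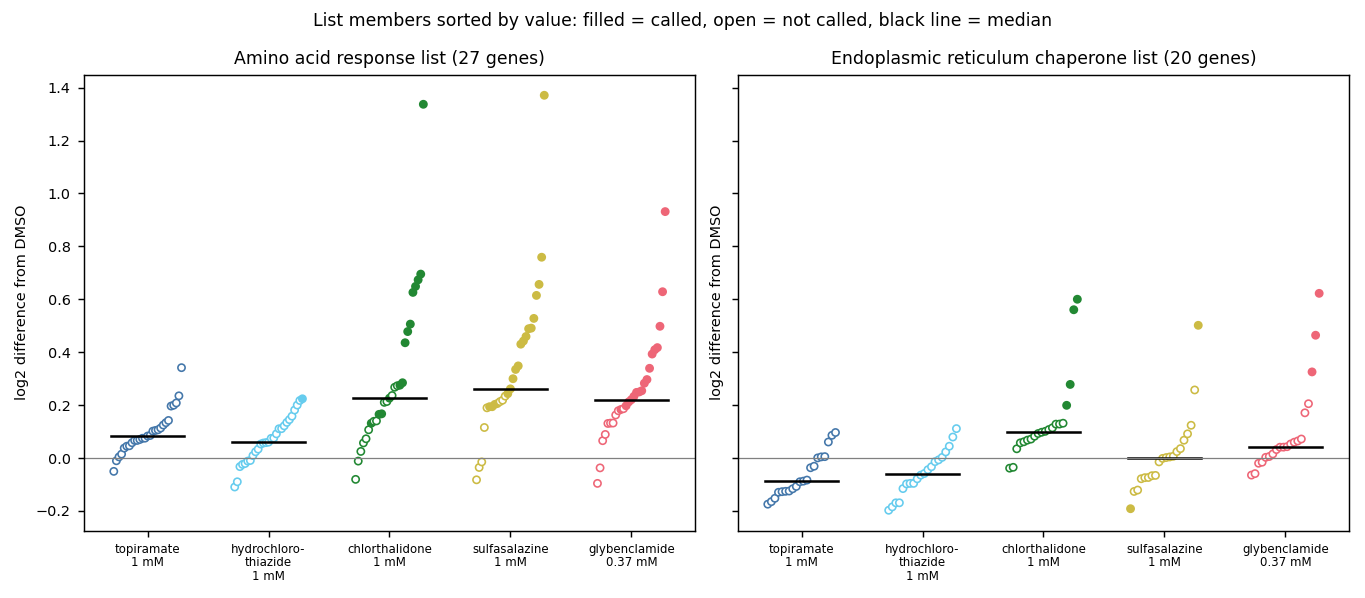
Sorted log2 differences from DMSO for the 27 measured genes of the amino acid response and the 20 listed as endoplasmic reticulum chaperones. Each compound has 1 line, and filled points mark called genes. In the first panel chlorthalidone, glybenclamide and sulfasalazine have 14, 17 and 19 filled points, all above 0, and hydrochlorothiazide has 1; in the second chlorthalidone has 4.

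The pairs at 1 mM show where compounds of different structure differed in this programme. Chlorthalidone and hydrochlorothiazide share the unsubstituted sulfonamide on a chlorine-bearing ring, and 12 of the 27 genes were higher with chlorthalidone and none with hydrochlorothiazide, beside 6.54% and 2.08% of all probe sets; 7 were higher without the narrow arrays and 7 with the covariate. Chac1 was higher with chlorthalidone by 1.14 (95% interval 0.97 to 1.30, adjusted p = 2.573e-13), and by 1.26 without the narrow arrays (adjusted p = 1.186e-09). Trib3 was higher by 0.48 (adjusted p = 4.056e-06; 0.46 without the narrow arrays, adjusted p = 0.002076), and Stc2 by 0.45 (adjusted p = 9.388e-08; 0.43, adjusted p = 0.0002567). Asns was not called in that pair or any other.

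Chlorthalidone and sulfasalazine, whose sulfonamide is substituted, were close on the same genes: 1 of 27 was higher with chlorthalidone and 4 with sulfasalazine, beside 7.49% and 8.01% of all probe sets. The difference in Chac1 was -0.03 (95% interval -0.20 to 0.13), in Trib3 0.04 (-0.10 to 0.18) and in Stc2 0.06 (-0.05 to 0.16). Differences beyond those bounds are not covered by the 95% intervals, and these missed tests do not show that the compounds act alike. Slc1a4 was lower with chlorthalidone, with a difference of -0.20 (adjusted p = 0.02729). Atf5 was the gene that was higher, by 0.23, and Shmt2, Aldh18a1, Cth and Ppp1r15a were lower, with differences between -0.21 and -0.17.

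Hydrochlorothiazide and topiramate, an aromatic sulfonamide and a sulfamate of a sugar, gave no call in the list in either direction, beside 0.367% and 1.56% of all probe sets; without the narrow arrays 1 gene was lower with hydrochlorothiazide. The difference in Chac1 was -0.14 (95% interval -0.31 to 0.03) and -0.27 (-0.50 to -0.03) without the narrow arrays, where its adjusted p was 0.1748. Stc2 differed by 0.02 (-0.08 to 0.13) and by 0.04 (-0.11 to 0.19) without them. Chlorthalidone exceeded topiramate in 10 genes and was lower in none, beside 4.3% and 1.84% of all probe sets, with a Chac1 difference of 1.00 (adjusted p = 1.712e-11).

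Sulfasalazine exceeded topiramate in 14 genes of the list, beside 12.7% of probe sets higher with sulfasalazine and 15.6% higher with topiramate, with a Chac1 difference of 1.03. Hydrochlorothiazide was lower than sulfasalazine in 18 genes, beside 20.6% of probe sets higher with hydrochlorothiazide and 18.5% higher with sulfasalazine; 10 were lower without the narrow arrays and 7 with the covariate. The Chac1 difference, hydrochlorothiazide minus sulfasalazine, was -1.17 (adjusted p = 1.238e-13), and -1.30 without the narrow arrays (adjusted p = 5.853e-10).

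**Figure D4:**
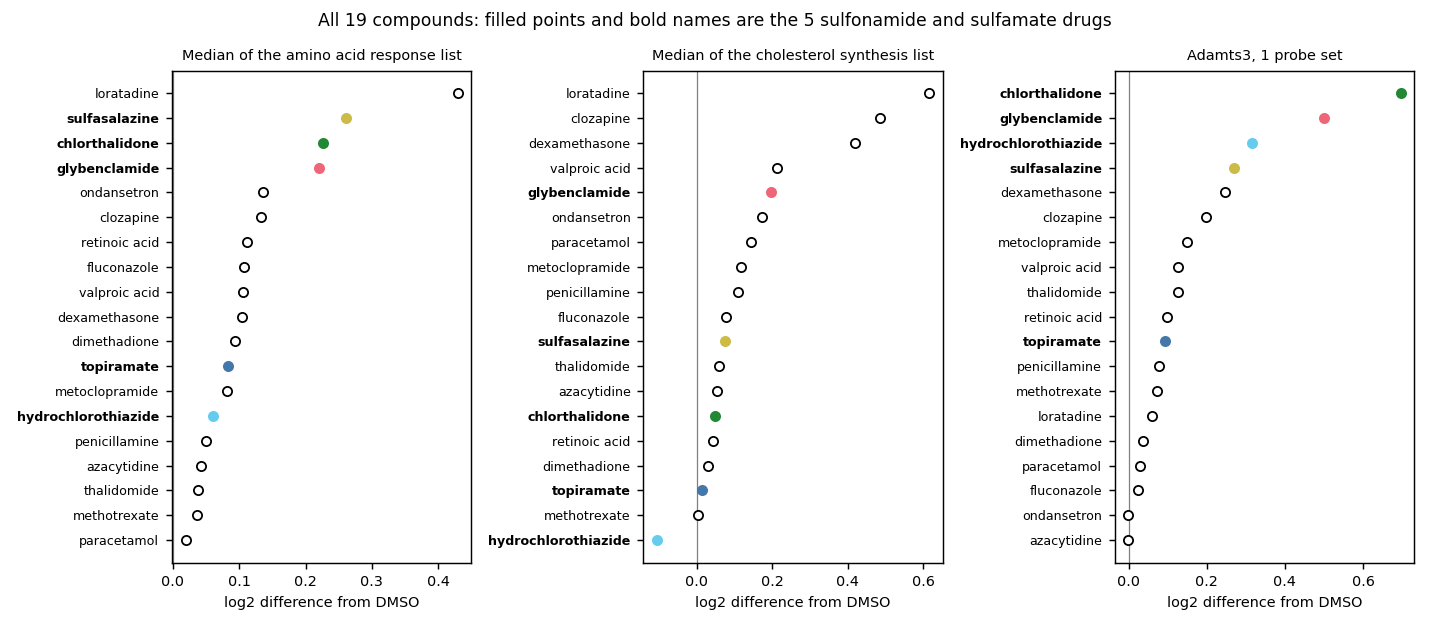
For each of the 19 compounds, with the class filled and in bold, the panels plot the median log2 difference from DMSO over the amino acid response, the same over cholesterol synthesis, and the difference of 1 Adamts3 probe set. Sulfasalazine, chlorthalidone and glybenclamide follow loratadine in the first panel, at 0.262, 0.226 and 0.221 against 0.430, while topiramate and hydrochlorothiazide lie at 0.0833 and 0.0602; hydrochlorothiazide is lowest in the second at -0.105.

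Seen over the whole array, the 6 pairs differed widely in their number of calls. Hydrochlorothiazide against topiramate gave the fewest, with 80 higher and 339 lower, and hydrochlorothiazide against sulfasalazine the most, with 4480 higher and 4035 lower. Chlorthalidone against hydrochlorothiazide gave 1426 higher and 454 lower, chlorthalidone against sulfasalazine 1633 and 1746, chlorthalidone against topiramate 936 and 400, and sulfasalazine against topiramate 2768 and 3391. An F test over the 4 compounds called 9425 probe sets (43.3%), or 5834 without the narrow arrays and 896 with the covariate. Without the narrow arrays the 3 pairs with hydrochlorothiazide had 233 calls against chlorthalidone, 708 against sulfasalazine and 97 against topiramate. With the covariate the totals were 361 for chlorthalidone against hydrochlorothiazide, 342 against sulfasalazine and 577 against topiramate, 151 for hydrochlorothiazide against sulfasalazine, 39 for hydrochlorothiazide against topiramate and 210 for sulfasalazine against topiramate. The share of calls higher in the first compound then went from 75.9% to 60.7%, for chlorthalidone against hydrochlorothiazide, and from 70.1% to 56.2% against topiramate. It went from 52.6% to 29.1% for hydrochlorothiazide against sulfasalazine, from 19.1% to 30.8% for hydrochlorothiazide against topiramate, and from 44.9% to 60% for sulfasalazine against topiramate; without the narrow arrays the 2 pairs with hydrochlorothiazide stood at 40.4% and 45.4%. Single arrays moved the counts too. Without replicate 1 of hydrochlorothiazide the pair with chlorthalidone had 789 calls, with sulfasalazine 4824 and with topiramate 99, and without its replicate 3 they had 3505, 10156 and 1298. The pair of chlorthalidone and sulfasalazine ran down to 1711 without sulfasalazine replicate 2, that of chlorthalidone and topiramate to 762 and that of sulfasalazine and topiramate to 3010 without topiramate replicate 3, and the F test to 6401 without sulfasalazine replicate 2.

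Txnip, which binds thioredoxin and limits glucose uptake, separated chlorthalidone from sulfasalazine although both raised the amino acid response. It read 11.107, 11.043 and 11.192 with DMSO, 10.684, 10.705 and 10.801 with chlorthalidone and 11.583, 11.585 and 11.545 with sulfasalazine. Every chlorthalidone array lay below and every sulfasalazine array above all controls, with a fall of 0.38 (adjusted p = 5.608e-06) and a rise of 0.46 (adjusted p = 1.541e-07). The difference between them was -0.84 (95% interval -0.95 to -0.73, adjusted p = 1.198e-14). Txnip rose by 0.25 with glybenclamide (adjusted p = 0.001645), and with hydrochlorothiazide it differed by -0.14 (adjusted p = 0.1419; -0.07 without the narrow arrays). The difference of chlorthalidone from hydrochlorothiazide was -0.25 (adjusted p = 0.001736; -0.32 without the narrow arrays, adjusted p = 0.008983). Txnip came second after Chac1 in the F test over the 4 compounds, followed by Slc1a4, Gpt2, which converts alanine to pyruvate, and Gpcpd1, a phosphodiesterase that releases choline; Hspb6, Oxnad1, Rnf157, Stc2 and Dzip3 made up the rest of the first 10.

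Other genes marked single pairs. Chlorthalidone exceeded sulfasalazine in Adamts3 (0.69), in Ahnak2, a large scaffold protein (0.56), and in Teddm3 (0.66), and was lower in Nlrp9b, a gene of the NLR family (-0.88), in Serpinb2, a plasminogen activator inhibitor (-0.79), and in the probe set named Mir302c (-0.76). Against topiramate chlorthalidone was higher in Adamts3 (1.06), Fbxo47 (0.79) and Ahnak2 (0.78). Sulfasalazine exceeded topiramate in Zfp931 (1.21), Arxes1 (0.92) and Atxn1 (0.90). It was lower in 6030498E09Rik (-0.88), Olfr288 (-0.73), Cyp2b23, a cytochrome P450 (-0.67), and Lgi1 (-0.66). Of these 6030498E09Rik, Olfr288 and Lgi1 were dim, with sulfasalazine means of 5.095, 5.2098 and 4.1594. Probe sets with a mean level near 5.244 had a median difference of -0.145 in that pair. With the covariate the pair had 210 calls against 6159, and no covariate value is given for these genes. Chlorthalidone exceeded hydrochlorothiazide in Adamts3 by 0.96 (1.04 without the narrow arrays) and in Cisd1 by 0.73 (0.62), and was lower in Slc39a10, a zinc importer, with a difference of -0.48 (-0.60, adjusted p = 3.241e-06).

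Pairs with hydrochlorothiazide leaned most on the narrow arrays. Hydrochlorothiazide exceeded sulfasalazine in the olfactory receptors Olfr1174 by 0.72 (0.65 without the narrow arrays), Olfr1489 by 0.72 (0.69) and Olfr767 by 0.69 (0.23, adjusted p = 0.6633), and in the keratin-associated gene Krtap5-2 by 0.68 (0.33, adjusted p = 0.3999). It was lower in Zfp931, Cisd1 and Serpinb2, with differences of -1.12 (-0.72, adjusted p = 0.1878), -0.95 (-0.85) and -0.93 (-0.57, adjusted p = 0.01363). With the covariate the differences of Olfr767 and Krtap5-2 turned negative, at -0.21 and -0.03. Against topiramate it was higher in Pcdhb12 and Dnajc13, both by 0.36, and in Lypd11 and Olfr557, and lower in Cisd1 (-0.58), Hmgn2, a nucleosome-binding protein (-0.42), Brd8dc (-0.41) and Aspn (-0.39). Without the narrow arrays, of these 8 Dnajc13 (0.53, adjusted p = 0.0379) and Brd8dc (-0.61, adjusted p = 0.01708) were called.

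Cisd1, an iron-sulfur protein of the outer mitochondrial membrane, led the genes that fell with hydrochlorothiazide. It read 10.372, 10.31 and 10.504 against 11.05, 11.24 and 11.27 with DMSO, a fall of 0.79 ± 0.14 (SE, adjusted p = 0.0053), and all 3 arrays lay below the controls. Without the narrow arrays its difference was -0.68 and with the covariate -0.59 (adjusted p = 0.2687), and it was called in neither. Ccdc90b fell by 0.57 and was the gene still called with the covariate (-0.37, adjusted p = 0.03697). Nlrp9b, Fam136a, C330018D20Rik and Med21, a subunit of the Mediator complex, followed, with falls of 0.54, 0.54, 0.52 and 0.50. The genes that rose most, Entpd1, Fcer2a, Fam135b, Defb46, Gm14812, Mrgprb5, Olfr1413 and Sctr, gained between 0.39 and 0.41, and lay between 0.17 and 0.38 without the narrow arrays, with none called.

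Other genes changed strongly against DMSO. Hspb6, a small heat shock protein, rose by 0.70 with chlorthalidone, 0.92 with glybenclamide and 0.86 with sulfasalazine. Glybenclamide raised Gpcpd1 most, from 8.6588, 8.6202 and 8.804 with DMSO to 9.6738, 9.623 and 9.7572, a rise of 0.99 (adjusted p = 2.599e-13). It also raised the amino acid transporters Slc43a2 (0.91) and Slc7a1 (0.83), the ubiquitin ligase Rnf157 (0.83), Rad9b (0.83) and Gm13375 (0.87). It lowered Cyp2b23 (-0.77), the ion channel gene Tmem38b (-0.70), the peptide hormone gene Edn1 (-0.67), the eye and brain transcription factor Pax6 (-0.64) and the embryonic Ras gene Eras (-0.62). Sulfasalazine raised the probe set named Mir302c (0.81), Gpt2 (0.75), Calhm5 (0.71) and the deubiquitinase gene Otub2 (0.70), and lowered Cyp2b23 (-0.70), the fibrinogen chain Fga (-0.53), Olfr1510 (-0.52), the aspartate oxidase Ddo (-0.51), the probe set named Mir222 (-0.48) and Olfr1305 (-0.47). Fga, Ddo, Mir222 and Olfr1305 were dim, with DMSO means of 6.8634, 5.8886, 6.2228 and 4.928. Probe sets with a mean level near 6.6 had a median difference of -0.13 with sulfasalazine. With the covariate sulfasalazine had 297 calls against 1940, and no covariate value is given for these genes. With chlorthalidone Nlrp9b (-0.92), Olfr307 (-0.63), Eras (-0.63) and Platr8 (-0.63) fell beside the Lefty genes described below. For topiramate the 3 smallest p belonged to Erbin (-0.29), Hltf, a helicase (-0.45), and Casd1 (-0.36), each with an adjusted p of 0.0643; without topiramate replicate 2 all 3 were called.

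**Figure D5:**
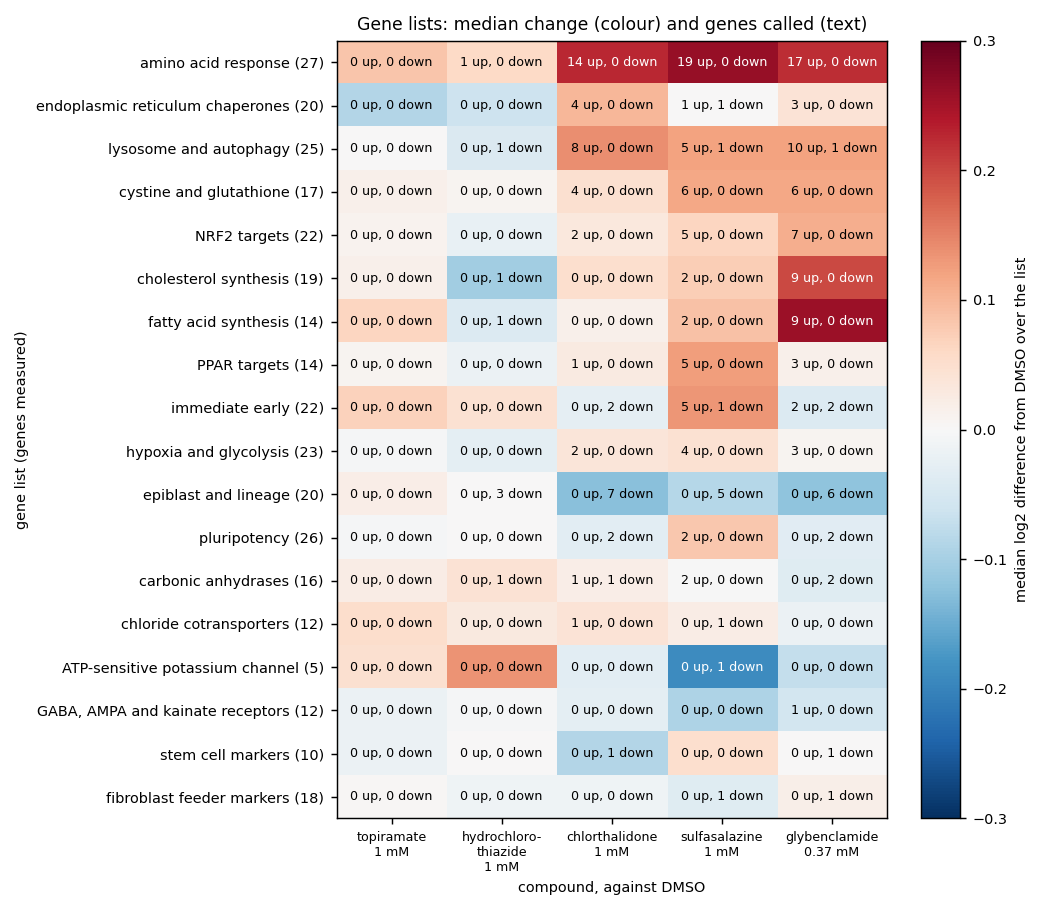
Heat map of 18 gene lists by 5 compounds, where the colour gives the median log2 difference of the list from DMSO and the text the number of members called up and down. The amino acid response reads 14, 17 and 19 up for chlorthalidone, glybenclamide and sulfasalazine, and no list has a call with topiramate.

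The genes listed here as endoplasmic reticulum chaperones, which include degradation genes of that organelle, rose in part. Of 20 measured, 4 rose with chlorthalidone, 3 with glybenclamide, 1 rose and 1 fell with sulfasalazine, and none was called with hydrochlorothiazide or topiramate; for chlorthalidone 2 rose without replicate 1 or 2 of DMSO or its own replicate 3. Over all probe sets 1.44% rose with chlorthalidone, 6.79% with glybenclamide and 5.4% with sulfasalazine, where 3.5% fell. Herpud1, a component of the degradation machinery of that organelle, read 9.4932, 9.5451 and 9.5337 with DMSO and 10.08, 10.258 and 10.034 with chlorthalidone, a rise of 0.60 (adjusted p = 1.817e-07). It rose by 0.46 with glybenclamide and 0.50 with sulfasalazine and differed by -0.03 with hydrochlorothiazide and 0.00443 with topiramate. Derl3, another member of that machinery, rose by 0.56 with chlorthalidone and 0.62 with glybenclamide. In the pairs 12 chaperones were higher with chlorthalidone than with hydrochlorothiazide (2 without the narrow arrays and 5 with the covariate), 8 than with sulfasalazine (6 with the covariate) and 12 than with topiramate (8 with the covariate), and none was lower. In these pairs 6.54%, 7.49% and 4.3% of all probe sets were higher with chlorthalidone. Herpud1 was higher with chlorthalidone than with hydrochlorothiazide by 0.63 (0.56 without the narrow arrays, adjusted p = 0.0006113), while against sulfasalazine the difference was 0.10 (95% interval -0.05 to 0.25).

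Lysosome and autophagy genes rose in part with chlorthalidone, glybenclamide and sulfasalazine. Of 25 measured, 8 rose with chlorthalidone, 10 rose and 1 fell with glybenclamide, 5 rose and 1 fell with sulfasalazine, and 1 fell with hydrochlorothiazide, with list medians of 0.14, 0.121, 0.121 and -0.044. Over all probe sets 1.44%, 6.79% and 5.4% rose with the first 3 compounds, 2.75% fell with glybenclamide, 3.5% with sulfasalazine and 1.87% with hydrochlorothiazide. Hexa, which degrades gangliosides in the lysosome, read 9.6425, 9.5953 and 9.7017 with DMSO, 10.287, 10.298 and 10.075 with chlorthalidone and 10.066, 10.073 and 10.241 with glybenclamide, rises of 0.57 and 0.48 with no overlap with the controls. With sulfasalazine Hexa differed by 0.12 (adjusted p = 0.3167). Mcoln1, a lysosomal calcium channel, rose by 0.31 with chlorthalidone and 0.38 with glybenclamide, and Fnip1, which binds folliculin, by 0.49 with chlorthalidone. Gla, an alpha-galactosidase, rose by 0.34 with sulfasalazine. Without single arrays the chlorthalidone count fell to 4 (its replicate 2) or 5 (DMSO replicate 2, or its replicates 1 or 3) and the glybenclamide count to 4 (DMSO replicate 2) or 6 (its replicate 1). In the pairs 12 were higher with chlorthalidone than with hydrochlorothiazide (4 without the narrow arrays, 7 with the covariate) and 11 were lower with hydrochlorothiazide than with sulfasalazine (1 without the narrow arrays), beside 6.54% and 18.5% of all probe sets.

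Some genes of the epiblast and of early lineages fell. Of 20 measured, 7 fell with chlorthalidone, 6 with glybenclamide, 5 with sulfasalazine and 3 with hydrochlorothiazide, and none rose with any. In that order 1.14%, 2.75%, 3.5% and 1.87% of all probe sets fell. The list medians were -0.126, -0.12, -0.0852 and 0.00151, and 0.0202 with topiramate. Lefty1, an inhibitor of Nodal signalling, read 9.2616, 9.324 and 9.3902 with DMSO, 8.6534, 8.5824 and 8.4999 with chlorthalidone and 8.6375, 8.4225 and 8.5628 with glybenclamide. The falls were 0.75 (adjusted p = 8.465e-08) and 0.78 (adjusted p = 1.401e-08), with a gap to every control array. With hydrochlorothiazide Lefty1 read 8.9978, 8.9527 and 9.0783, below all controls, a difference of -0.32 (adjusted p = 0.04374; -0.25 and not called without the narrow arrays). With sulfasalazine it fell by 0.27 (adjusted p = 0.04947). Lefty2, its neighbour and relative, fell by 0.79 with chlorthalidone, 0.43 with glybenclamide and 0.38 with hydrochlorothiazide, where it was not called without the narrow arrays (-0.19).

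Other members of that list were Eomes, a mesoderm and endoderm transcription factor, which fell by 0.44 with chlorthalidone, 0.44 with glybenclamide, 0.34 with hydrochlorothiazide and 0.26 with sulfasalazine, and Otx2, a head and epiblast transcription factor, which fell by 0.35 with chlorthalidone. Chlorthalidone was lower than hydrochlorothiazide in 6 of the 20 (5 without the narrow arrays), lower than sulfasalazine in 6 (3 with the covariate) and lower than topiramate in 8, beside 2.08%, 8.01% and 1.84% of all probe sets. The Lefty1 difference of chlorthalidone was -0.43 against hydrochlorothiazide (-0.50 without the narrow arrays, adjusted p = 0.01042), -0.48 against sulfasalazine (adjusted p = 0.0001831) and -0.65 against topiramate (adjusted p = 1.897e-06). For sulfasalazine against DMSO the count was between 1 and 3 without any 1 of its own arrays or those of DMSO, and 1 without replicate 2 of either.

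Foxd3, a transcription factor that holds stem cells undifferentiated, fell with chlorthalidone and with no other compound of the class. It read 9.6756, 9.561 and 9.5647 with DMSO and 9.2228, 9.0793 and 9.1308 with chlorthalidone, a fall of 0.46 (adjusted p = 7.207e-05), with no overlap. Its differences were 0.03 with hydrochlorothiazide, -0.04 with glybenclamide, -0.06 with sulfasalazine and 0.14 with topiramate. The differences of chlorthalidone were -0.48 against hydrochlorothiazide (-0.51 without the narrow arrays, adjusted p = 0.002223), -0.40 against sulfasalazine (adjusted p = 0.0002879) and -0.60 against topiramate (adjusted p = 4.818e-07).

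Some genes of lipid synthesis rose, most of them with glybenclamide. Of 19 genes of cholesterol synthesis 9 rose with glybenclamide, 2 with sulfasalazine and none with chlorthalidone or topiramate, and 1 fell with hydrochlorothiazide, with medians of 0.198, 0.0739, 0.0495, 0.0141 and -0.105. Over all probe sets 6.79% rose with glybenclamide, 5.4% rose with sulfasalazine and 1.87% fell with hydrochlorothiazide, which also applies to the fatty acid genes below. Insig1, which retains the sterol sensor SCAP in the endoplasmic reticulum, read 9.9472, 9.758 and 9.9753 with DMSO and 10.372, 10.278 and 10.277 with glybenclamide, a rise of 0.42 (adjusted p = 0.0005821). Nsdhl and Dhcr7, enzymes late in the pathway, rose by 0.38 each. Of 14 genes of fatty acid synthesis 9 rose with glybenclamide, or 5 without replicate 2 of DMSO or its own replicate 1, 2 rose with sulfasalazine and 1 fell with hydrochlorothiazide. Scd1, a desaturase, rose by 0.50 and Fads2, another desaturase, by 0.44 with glybenclamide. Scd2 read 10.835, 10.841 and 10.931 with hydrochlorothiazide against 11.108, 11.051 and 11.079 with DMSO, a fall of 0.21 (adjusted p = 0.03742). All 19 cholesterol genes had a class mean below that of the 14 others, from -0.26 to -0.02 with a median of -0.125, and none was called; the highest medians of this list were those of loratadine (0.616), clozapine (0.486) and dexamethasone (0.419), all outside the class. Without the narrow arrays all 19 were lower in the class, with a median of -0.1049, beside 46.5% of all genes. With the covariate 18 of the 19 were lower, and no share of all genes is given for that setting. The brightest probe sets had a median class difference of -0.016 with all arrays. No test of the 19 genes as a set is given.

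The transcripts of proteins that these drugs are known to bind are given next. Of 16 measured carbonic anhydrases, 1 rose and 1 fell with chlorthalidone, 1 fell with hydrochlorothiazide, 2 fell with glybenclamide, 2 rose with sulfasalazine and none was called with topiramate. Over all probe sets 1.44% rose and 1.14% fell with chlorthalidone, 1.87% fell with hydrochlorothiazide, 2.75% fell with glybenclamide and 5.4% rose with sulfasalazine. Car4, a membrane-bound form, read 9.7235, 9.8844 and 10.015 with hydrochlorothiazide against 10.304, 10.19 and 10.229 with DMSO, a fall of 0.37 (adjusted p = 0.005328) with no overlap; without the narrow arrays it was -0.23 and not called. Car2, the abundant cytosolic form, read 11.98, 11.893 and 11.93 with DMSO and 11.595, 11.617 and 11.675 with glybenclamide, a fall of 0.31 (adjusted p = 0.0004297). Car2 differed by -0.18 with chlorthalidone, -0.11 with hydrochlorothiazide and -0.09 with topiramate, none of them called. Car3, a muscle and fat form, fell by 0.27 with chlorthalidone (adjusted p = 0.0479) and by 0.27 with glybenclamide (adjusted p = 0.02189). Car13, a cytosolic form, rose by 0.31 with chlorthalidone (adjusted p = 0.003667) and by 0.30 with sulfasalazine (adjusted p = 0.004421), and Car5b, a mitochondrial form, by 0.36 with sulfasalazine (adjusted p = 0.0157). Car9, Car12 and Car14, which act at the cell surface, were called with no compound.

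Slc7a11 read 6.2116, 6.164 and 6.0971 with DMSO. It read 6.4428, 6.5832 and 6.3462 with sulfasalazine, a rise of 0.30 (adjusted p = 0.02927), and 6.4427, 6.4145 and 6.5054 with glybenclamide, also a rise of 0.30 (adjusted p = 0.02566). With chlorthalidone it read 6.3631, 6.3892 and 6.5403, above every control, with a difference of 0.27 that missed the threshold (adjusted p = 0.1001). The differences with hydrochlorothiazide and topiramate were -0.02 and 0.01. Chlorthalidone was higher than hydrochlorothiazide by 0.30 (adjusted p = 0.01724; 0.28 without the narrow arrays, adjusted p = 0.1949) and sulfasalazine higher than topiramate by 0.29 (95% interval 0.10 to 0.47, adjusted p = 0.02262). The wider list of 17 cystine and glutathione genes had 4 rises with chlorthalidone, 6 with glybenclamide and 6 with sulfasalazine, beside 1.44%, 6.79% and 5.4% of all probe sets.

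Among the other targets, Slc12a3, Slc12a2, Abcc8, Kcnj11, Spr, Gria1 and Grik1 were called with no compound against DMSO. Slc12a3 differed by -0.29 with sulfasalazine (adjusted p = 0.05372). It was lower with sulfasalazine than with each other compound at 1 mM, by 0.39 against chlorthalidone (adjusted p = 0.004228), 0.41 against hydrochlorothiazide (adjusted p = 0.002896; 0.26 without the narrow arrays, adjusted p = 0.2769) and 0.43 against topiramate (adjusted p = 0.002076). Between the 2 diuretics it differed by -0.02 (95% interval -0.21 to 0.18), and by 0.13 (-0.14 to 0.41) without the narrow arrays. Abcc8, the receptor of sulfonylureas, differed by -0.21 with glybenclamide (adjusted p = 0.07852). Gria1, an AMPA receptor subunit, was lower with sulfasalazine than with topiramate, with a difference of -0.37 (adjusted p = 0.007687), and Slc12a2, the widespread sodium-potassium-chloride cotransporter, was higher with chlorthalidone than with topiramate by 0.20 (adjusted p = 0.01814).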

How the data were processed

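Affymetrix mouse gene arrays measured RNA from 60 samples in 20 groups of 3. The authors deposited log2 values per probe set, made with RMA per the submitters' processing notes; RMA's version and background settings and the genome build are named in none of the labels. The number of arrays limits the precision. Of 35556 probe sets, 21789 with 1 gene symbol in the platform annotation were tested, 1621 had several symbols and 12146 had no entry. One limma 3.58.1 fit (R 4.3.3) over all 60 arrays gave the contrasts, with Benjamini-Hochberg adjustment and a threshold of 0.05. The class comparison used compound means, and response sizes an exact permutation test (scipy 1.17.1). Scripts were tested on simulated data. The class and the gene lists were chosen with earlier results of these data known, although the rule for the class uses no expression value.

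Named against DMSO, among calls whose arrays did not overlap the controls, were the 8 largest rises and 6 largest falls, or the 3 smallest p where there was no call. Pairs gave the 4 largest called differences each way with no overlap between arrays, the F test the 10 smallest p, the class comparison the 6 smallest each way (the first named here), and lists their 3 largest members, with the drug targets fixed; further members were named after their values were seen. Alternatives were quantile normalisation, the array interquartile range as a covariate, leaving out the narrow or single arrays, fits of only the groups compared, all probe sets, no dim probe sets, trend and robust variance, and the 14 other compounds as reference. Nothing in the labels says that replicates came from separate cultures, so p-values measure the spread between these samples, which may be technical.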

Additional observations from a re-analysis of the deposited data

Results flagged for a closer look

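Trdn and Rgs22, both named for the comparison of the 4 compounds at 1 mM with the 5 others, each had a chlorthalidone mean far from those of hydrochlorothiazide, sulfasalazine and topiramate; glybenclamide was not in this check. For Trdn the chlorthalidone mean was 5.6049 and the next highest 5.3843, a gap of 0.84 of the range of the 4 compounds, past Dixon's limit for that number of values. For Rgs22, a regulator of G protein signalling, the chlorthalidone mean was 7.4349 and the gap 0.926. In all 25 such checks were made and chance passes about 1 in 20.

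Probe sets with several gene symbols or none, 13767 in all, stayed out of every comparison of the report. Among them limma called 28 with chlorthalidone, 16 with hydrochlorothiazide, 147 with glybenclamide and 60 with sulfasalazine against DMSO, adjusted over those probe sets alone. With topiramate it called 0, with 1097 under an unadjusted 0.05.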

How the results depend on the processing

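No paired analysis was possible because the replicate numbers follow accession order and pair no samples. Leaving out 1 array gave 319 to 436 calls for chlorthalidone against DMSO, 0 to 3428 for hydrochlorothiazide, 1126 to 2090 for glybenclamide, 391 to 2994 for sulfasalazine and 0 to 30 for topiramate. For the pairs it gave 789 to 3505 for chlorthalidone and hydrochlorothiazide, 1711 to 2779 for chlorthalidone and sulfasalazine, 762 to 1603 for chlorthalidone and topiramate, 4824 to 10156 for hydrochlorothiazide and sulfasalazine, 99 to 1298 for hydrochlorothiazide and topiramate, 3010 to 6727 for sulfasalazine and topiramate, and 6401 to 10775 for the F test. Leaving out 1 compound gave 0 calls in the class comparison of 5 with 14 and 0 to 1 in that of 4 with 5.

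Quantile normalisation moved chlorthalidone against DMSO to 936, hydrochlorothiazide and sulfasalazine to 5172, and sulfasalazine and topiramate to 3761. The interquartile range as a covariate gave 855 for chlorthalidone, 2 for hydrochlorothiazide and 297 for sulfasalazine against DMSO, 361, 342 and 577 for the pairs of chlorthalidone with hydrochlorothiazide, sulfasalazine and topiramate, 151 and 39 for hydrochlorothiazide with sulfasalazine and topiramate, 210 for sulfasalazine and topiramate, and 896 for the F test. Without both narrow arrays hydrochlorothiazide had 0 calls against DMSO, 233, 708 and 97 in its pairs with chlorthalidone, sulfasalazine and topiramate, and the F test 5834. Fits of only the groups compared gave 194 for chlorthalidone, 0 for hydrochlorothiazide, 1210 for glybenclamide and 1133 for sulfasalazine against DMSO, 1059 for chlorthalidone and hydrochlorothiazide and 114 for hydrochlorothiazide and topiramate. With the 14 other compounds as reference chlorthalidone had 1274 calls, hydrochlorothiazide 8633 and topiramate 3961. Without dim probe sets hydrochlorothiazide had 775 and topiramate 19 against DMSO, chlorthalidone and sulfasalazine 2005, hydrochlorothiazide and sulfasalazine 4235, sulfasalazine and topiramate 3087 and the F test 4971. Trend and robust variance gave 12 for topiramate. Testing all probe sets moved none of the 14 totals of calls by over 1.5 times. Among 242 further results 5 counts moved and 6 gene values lost the call.

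With the covariate Olfr767 and Krtap5-2, hydrochlorothiazide minus sulfasalazine, turned to -0.2063 and -0.03202. Of 242 further results under the covariate, 174 were scored as unchanged, 37 lost the call, 29 counts moved and 2 reversed. Under quantile normalisation the first 3 of these numbers were 215, 6 and 21. The 242 results mix counts with values of single genes. The 174 therefore do not say how many single genes kept their direction and call. The difference in response size kept its side of the threshold, with p from 0.125 to 0.667. The cause of these changes was not tested.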

Other observations

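Some oxidative stress genes rose. Of 22 NRF2 targets, 7 rose with glybenclamide, 5 with sulfasalazine and 2 with chlorthalidone, beside 6.79%, 5.4% and 1.44% of all probe sets, and none was called with hydrochlorothiazide or topiramate. For glybenclamide 3 were called without replicate 2 of DMSO, 3 without its own replicate 3 and 4 without its replicate 1. Hmox1, which degrades haem, read 10.993, 10.849 and 10.987 with DMSO and 11.48, 11.574 and 11.604 with glybenclamide, a rise of 0.61 (limma, adjusted p = 2.428e-09), and rose by 0.46 with chlorthalidone and 0.34 with sulfasalazine. Its arrays with hydrochlorothiazide, at 10.979, 10.963 and 11.007, overlapped the controls. Slc39a10, which imports zinc, read 11.059, 11.141 and 11.112 with DMSO and 10.515, 10.623 and 10.464 with chlorthalidone, a fall of 0.57 (adjusted p = 3.036e-09), and fell by 0.43 with glybenclamide. Among 13 metallothionein and zinc genes 1 rose and 2 fell with chlorthalidone, 2 fell with hydrochlorothiazide (none without its narrow arrays) and 1 rose and 2 fell with glybenclamide. Over all probe sets 1.44% rose and 1.14% fell with chlorthalidone, 1.87% fell with hydrochlorothiazide, and 6.79% rose and 2.75% fell with glybenclamide.

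Of 22 immediate early genes, 2 fell with chlorthalidone, 2 rose and 2 fell with glybenclamide, and 5 rose and 1 fell with sulfasalazine; 8 were lower with chlorthalidone than with sulfasalazine, or 2 with the interquartile range as a covariate, beside 8.01% of all probe sets. Egr1, a growth-factor-induced transcription factor, differed by -0.31 with chlorthalidone, -0.41 with glybenclamide and 0.26 with sulfasalazine. Of 26 pluripotency genes 2 fell with chlorthalidone, 2 fell with glybenclamide and 2 rose with sulfasalazine. PPAR targets, 14 in number, had 1 rise with chlorthalidone, 3 with glybenclamide and 5 with sulfasalazine, and 23 hypoxia and glycolysis genes had 2, 3 and 4. For all of these lists the shares over all probe sets were 1.44% up and 1.14% down with chlorthalidone, 6.79% and 2.75% with glybenclamide, and 5.4% and 3.5% with sulfasalazine.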
